A study of Mus musculus with 8 samples.

Results

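The genes described here encode the general splicing machinery and its main regulators: SR proteins, hnRNPs, the SF3 complex, Sm and other snRNP proteins, Prpf factors, Luc7-like proteins, Srrm proteins, Clk kinases, U2af, Celf and Mbnl proteins. They were chosen by symbol, from 11 families, and by a minimum level, with earlier results of these data known. A total of 88 annotated genes carried such a symbol, and 85 of them reached at least 1 CPM (counts scaled to the size of the library) in at least 4 of the 8 libraries and were tested among 12889 genes in all. Of the 3 left out, *Srsf12* had 0, 1, 2 and 5 counts in the control libraries and 0 in each knockout library, *Mbnl3* had 0 counts in every control library and 0, 2, 0 and 8 in the knockout libraries, and *U2af1l4* had 0 counts throughout. *Celf5*, which reached the minimum in 4 libraries, *Celf6* in 5 and *Hnrnph2* in 7 lay just inside it, and *Srsf12* and *Mbnl3*, which reached it in 1 library each, lay just outside.

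RNA of isolated retinal pigment epithelium (RPE), the pigmented cell layer that supports the photoreceptors, was sequenced at P29 from 4 *Bbs8*-/- mice (knockout) and from 4 *Bbs8*+/+ littermates (wild type, the control). *Bbs8*, annotated as *Ttc8*, encodes a subunit of the BBSome, a complex that moves membrane proteins in and out of cilia. All mice were on the C57/Bl6 background, carried no further allele and received no treatment, their sex was not determined, and each animal was 1 replicate. The knockout is carried by the whole animal, so neighbouring tissues lacked the gene as well. The QuantSeq method reads the 3′ end of polyadenylated transcripts. It gives the amount of mRNA of a splicing factor gene, and neither its protein nor the splicing of any transcript was measured.

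Gene counts ranged from 2495094 to 3093428 in wild type and from 2389835 to 2736289 in knockout libraries, and 3 counts, taken as the floor, correspond to 1.02 to 1.23 CPM. *Ttc8* fell from 47.6 ± 10.3 to 4.70 ± 1.97 CPM (mean ± SD, n = 4 per genotype, here and below). Wild type replicate 1 stood apart from the other 3 wild types, with a chi-square per degree of freedom of 5.76 to 7.06 against 2.81 to 3.31 among the others. RPE markers were abundant (12 of 12 tested, summed level 35400 to 36592 CPM in wild type and 44287 to 47868 CPM in knockout), although *Best1* had at most 5 counts in any library. The higher knockout sum came from *Ttr*, and without it the other 11 held 14711 to 15588 CPM in wild type and 14267 to 14646 CPM in knockout. At an edgeR adjusted p under 0.05, 4 of the 12 RPE markers rose and 2 fell. Besides *Ttr*, the genes *Otx2*, *Slc16a8* and *Tyr* rose, by 0.30, 0.37 and 0.47 on the log2 scale (edgeR adjusted p = 0.00201, 3.86e-04 and 0.00122). *Rpe65* and *Rdh5* fell, by 0.24 and 0.26 (edgeR adjusted p = 4.67e-04 and 8.96e-04). Markers of neighbouring cells moved with genotype. All 21 photoreceptor markers were tested and detected in every library, 17 fell and 3 rose, and their sum went from 66850 to 70976 CPM down to 27953 to 28579 CPM. The 3 that rose, *Opn1sw*, *Opn1mw* and *Gnat2* (log2 fold changes 0.76, 0.84 and 0.70), are cone genes. The cone gene *Arr3* did not pass the test (−0.13). All 14 lens markers fell (sum 3210 to 3455 against 447 to 504 CPM), and so did 5 of 6 erythrocyte markers (5154 to 5718 against 1985 to 2218 CPM). Of 9 markers of Müller and reactive glia 5 rose (sum 6949 to 7695 against 8951 to 9395 CPM). Most of that sum was *Apoe* (mean 4110 CPM in wild type and 4856 CPM in knockout) and *Rlbp1* (1839 and 1889 CPM). Whether their reads came from glia or from RPE was not tested. Of 14 markers of inner retinal neurons *Calb2* alone passed the test, upwards (log2 fold change 1.51, edgeR adjusted p = 0.0322). The sum of the 14 covered 1208 to 1290 CPM in wild type and 1214 to 1310 CPM in knockout. Most of it came from *Syt1*, *Slc6a9*, *Snap25* and *Trpm1*. Fewer cells of a type and less RNA per cell cannot be told apart in such bulk samples. The part of these cells in the values below was not tested.

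Splicing removes introns in a series of steps carried out by small nuclear ribonucleoproteins (snRNPs), each an RNA held by a ring of Sm proteins with specific partners. The U1 snRNP finds the 5′ splice site, U2af and the U2 snRNP with its SF3 complex find the branch point and 3′ splice site, and the tri-snRNP with its Prpf proteins then completes the catalytic machinery. SR proteins, which the Clk kinases phosphorylate, and hnRNPs bind the pre-mRNA and raise or lower the use of exons, and Celf and Mbnl proteins often act on the same exons with opposite effect. In the retina, mutations in several tri-snRNP proteins cause retinitis pigmentosa in people, and *Srrm3* and *Srrm4* encode regulators of neuronal and photoreceptor microexons.

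Because each read comes from the end of a transcript, the values of a gene rest on its 3′ end. The last 30 bases of the annotated transcript (GENCODE M21, GRCm38, 5′ to 3′) are shown for the 6 of the 11 genes past the test that hold a polyadenylation hexamer there, with the hexamer, AATAAA or its variant ATTAAA, in capitals:
*Mbnl1*: ccctAATAAAacttctctttcttaagtata
*Mbnl2*: accaatgaAATAAAagaagcatttaaaagg
*Sf3b2*: gtctctaAATAAAatctcaattgttccaga
*Snrpd3*: attgtattAATAAAtggtgcatgaaaagtt
*Srrm3*: gactgtAATAAAaaacactaggtgcccggg
*Celf1*: tttatttgctATTAAActgtttgagaagaa
AATAAA was present in this window in 47 of the 85 tested genes (55.3%), against 55.8% of 12302 genes, and ATTAAA without it in 13 (15.3%), against 13.2%. The window held neither in the other 5 genes past the test, *Srsf2*, *Hnrnpll*, *Sf3b6*, *Snrpg* and *Srrm1*, nor in 29.4% of the splicing genes and 31.0% of all genes. The splicing genes therefore carried these hexamers about as often as other genes.

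The start sites were examined in the same manner, in RefSeq windows of 300 bases (GRCm38.p6) that were given for 73 of the 85 genes and for 9993 genes in all, on both strands. CCGGAAG, the core bound by ETS factors, stood in 27.4% of the splicing gene windows and 18.4% of all windows, CCAAT in 46.6% and 38.5%, GGGCGG in 67.1% and 65.5%, TATAAA in 8.22% and 7.15%, and the NRF1 core motif in 16.4% and 10.6%. No test was made of these shares. The RefSeq start can differ from the GENCODE start. The *Snrpg* window below lies inside the GENCODE gene, and that of *Sf3b6* partly inside it. The 150 bases before the RefSeq start are shown for 3 genes that passed the test and hold CCGGAAG there, written in capitals on either strand:
*Sf3b2*, chr19:5295456-5295605, minus strand: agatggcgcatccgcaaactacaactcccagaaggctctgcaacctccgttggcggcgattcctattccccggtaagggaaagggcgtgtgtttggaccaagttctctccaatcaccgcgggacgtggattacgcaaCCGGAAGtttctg
*Sf3b6*, chr12:4817458-4817607, plus strand: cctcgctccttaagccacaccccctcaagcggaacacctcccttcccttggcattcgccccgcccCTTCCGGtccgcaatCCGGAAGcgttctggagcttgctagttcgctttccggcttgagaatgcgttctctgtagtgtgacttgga
*Snrpg*, chr6:86371390-86371539, plus strand: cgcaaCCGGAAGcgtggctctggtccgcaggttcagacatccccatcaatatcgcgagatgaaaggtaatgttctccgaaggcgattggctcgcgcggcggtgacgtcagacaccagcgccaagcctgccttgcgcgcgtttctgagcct
Genes with this sequence moved both ways, since *Sf3b6* rose while *Sf3b2* and *Snrpg* fell, as described below.

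Of the 85 genes, 11 (12.9%) differed between genotypes at an adjusted p under 0.05 in edgeR's quasi-likelihood test, with Benjamini-Hochberg adjustment over all genes, against 12.3% of all genes tested. *Srsf2*, *Hnrnpll*, *Sf3b6* and *Celf1* were up-regulated in *Bbs8*-/- RPE, and *Sf3b2*, *Snrpg*, *Snrpd3*, *Srrm1*, *Srrm3*, *Mbnl1* and *Mbnl2* were down-regulated. The background in each direction was 5.46% of all genes higher and 6.80% lower. Levels and tests used TMM scaling, which sets library factors so that the bulk of genes stays level. With scaling by library size alone the split became 7 higher and 4 lower, because this scaling moved the median log2 fold change of all genes from 0.02 to 0.11. An unadjusted p under 0.05 was found for 22 genes (7 higher, 15 lower), and 23.4% of all genes reached it. The 4 knockout libraries did not overlap the 4 wild types in 12 of the 85 genes (14.1%), against 16.0% of all genes. The share of splicing factor genes that changed was therefore near the background of this tissue.

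The changes were small. The log2 fold changes of the 85 genes ran from −0.88 to 1.23, and 38 genes lay within 0.2 of zero and 11 beyond 0.5. Their median absolute value was 0.22 against 0.32 over all genes, which were not matched for level. A mean of 10 CPM or more was reached by 80 of the 85 genes and by 8428 of all 12889. The part of counting noise in this difference was not tested. The median was −0.10 and 55 of 85 genes (64.7%) were lower in knockout, against 48.2% of all genes and a median of 0.02. With scaling by library size 44 of 85 were lower, and the median of the splicing genes relative to that of all genes was −0.13 under both scalings. Their summed level was 10216 ± 209 CPM in wild type and 9367 ± 90.8 CPM in knockout, and the genotypes did not overlap. With library-size scaling they nearly met, the lowest wild type sum being 9727.1 CPM and the highest knockout sum 9726.7 CPM. The 95% interval of a log2 fold change had a median half-width of 0.33 for these genes and 0.57 over all genes, so that differences of under about that size were not detectable for most of them.

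**Figure D1:**
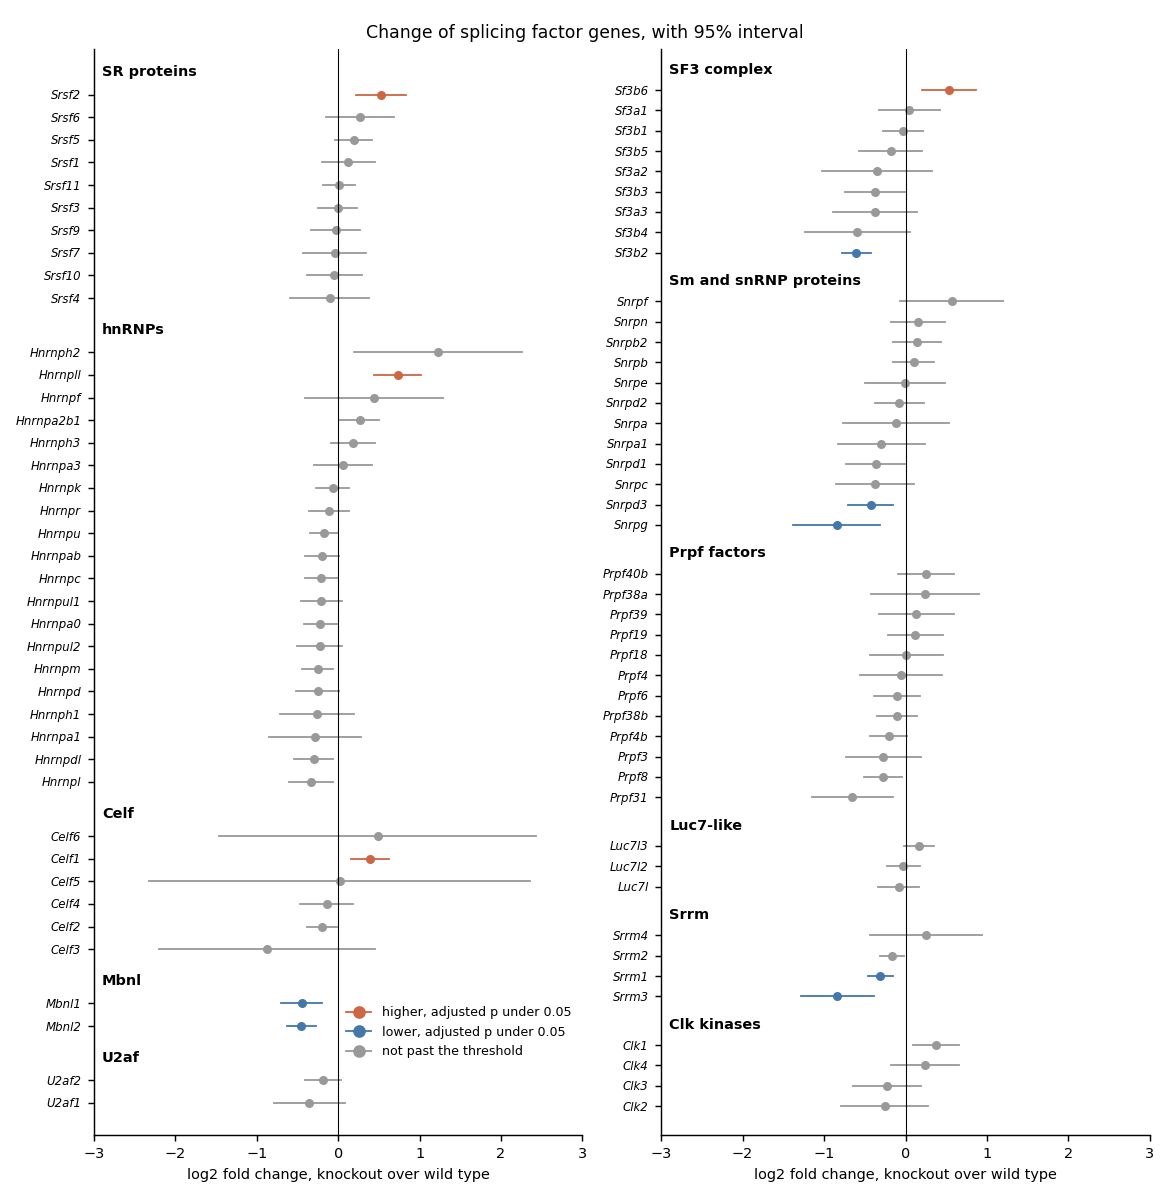
Log2 fold change, knockout over wild type, of 84 of the 85 splicing factor genes by family, with points for the estimate and lines for the 95% interval (n = 4 libraries per genotype). The 4 genes past the threshold upwards and the 7 past it downwards are coloured, and most other intervals cross 0.

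**Figure D2:**
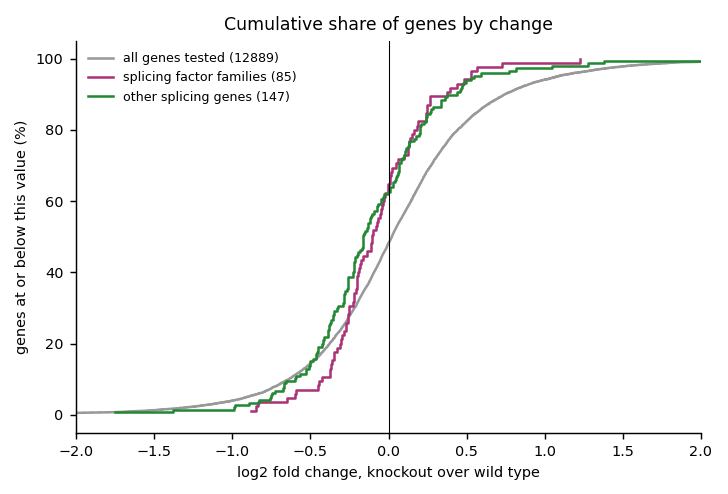
Cumulative share of genes (%) at or below each log2 fold change, for the 85 splicing factor genes, the 147 other splicing genes and all 12889 genes tested. The curves of the splicing genes lie left of that of all genes near 0, with medians of −0.10 and −0.16 against 0.02, and are steeper.

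The first contact with an intron is made by the U1 snRNP, and the Luc7-like proteins are its companions at the 5′ splice site. None of the 3 Luc7-like genes passed the test with edgeR or DESeq2, and none had an unadjusted p under 0.05. *Luc7l3* stood at 331, 322, 299 and 343 CPM in wild type and at 383, 399, 320 and 351 CPM in knockout, overlapping ranges with a log2 fold change of 0.16 (95% interval −0.02 to 0.34), which passed the threshold with library-size scaling (adjusted p = 0.0497).

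The Sm proteins and snRNP-specific proteins had 12 tested genes, of which 2 fell and none rose. Their median log2 fold change was −0.09, which library-size scaling brought to 0.00, and 8 of 12 were lower, or 6 of 12 with that scaling. *Snrpg* (ENSMUSG00000057278, chr6:86371304-86379328), which encodes SmG of the Sm ring, had 42.3, 23.5, 25.8 and 39.4 CPM in wild type and 25.9, 10.7, 14.8 and 21.7 CPM in knockout. The ranges overlapped, with 3 knockouts below every wild type, and the log2 fold change was −0.85 (SE 0.263, adjusted p = 0.0274). Without wild type replicate 1 or 4 or knockout replicate 2 or 3 the adjusted p rose to between 0.0896 and 0.123. *Snrpd3* (ENSMUSG00000020180, chr10:75517551-75537381), which encodes SmD3, had 162, 121, 91.6 and 121 CPM in wild type and 85.8, 102, 94.4 and 86.3 CPM in knockout. Its log2 fold change of −0.43 (SE 0.139, adjusted p = 0.0353) became −0.27 without wild type replicate 1, the highest library (adjusted p = 0.209). It also missed the threshold without wild type replicate 2 or 4 or knockout replicate 1, 3 or 4, with adjusted p values of 0.0659 to 0.105. Both calls were lost with library-size scaling (adjusted p = 0.0539 for *Snrpg* and 0.109 for *Snrpd3*). *Snrpb*, which encodes the shared SmB protein, was at 0.10 on the log2 scale with an interval of −0.15 to 0.35.

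At the 3′ splice site U2af2 binds the polypyrimidine tract and U2af1 the terminal AG. Both genes were lower in every scaling tried, and neither passed the test in edgeR or DESeq2 or reached an unadjusted p under 0.05. *U2af2* lay at 163, 150, 161 and 158 CPM in wild type and at 138, 143, 150 and 125 CPM in knockout, with a log2 fold change of −0.19 (interval −0.41 to 0.03). *U2af1* had a log2 fold change of −0.35 (interval −0.79 to 0.09), and the transcript end of *U2af1* has a near copy in another annotated gene, so its unique counts are uncertain.

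The SF3 complex, which clamps the U2 snRNP onto the branch point, had 9 tested genes, and 2 of them passed the test in opposite directions. *Sf3b2* (ENSMUSG00000024853, chr19:5273932-5295455), whose product SF3B2 contacts the pre-mRNA next to the branch point, had 740, 619, 561 and 580 CPM in wild type and 424, 440, 373 and 411 CPM in knockout. Every knockout lay below every wild type, the mean fell from 625 ± 80.6 to 412 ± 28.8 CPM, and the log2 fold change was −0.60 (SE 0.0870, adjusted p = 2.05e-06). *Sf3b6* (ENSMUSG00000037361, chr12:4817544-4827659), which encodes p14, a small protein close to the branch point adenosine, went the other way. It had 43.3, 54.5, 84.2 and 64.7 CPM in wild type and 107, 79.9, 89.2 and 79.7 CPM in knockout, and wild type replicate 3 lay within the knockout range. Its log2 fold change was 0.53 (SE 0.164, adjusted p = 0.0261), and the call was lost without wild type replicate 1, 2 or 4 or without knockout replicate 1 or 3 (adjusted p = 0.0511 to 0.117). *Sf3b1*, the scaffold of the complex, had a log2 fold change of −0.03 (interval −0.28 to 0.21).

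The number of *Sf3b6* counts per *Sf3b2* count, a ratio within each library that does not depend on scaling and was chosen after the values were seen, was 0.0585, 0.0879, 0.150 and 0.111 in wild type and 0.252, 0.181, 0.239 and 0.194 in knockout. The genotypes did not overlap, and the pair was chosen for its opposite calls. In the complex as a whole 7 of 9 genes were lower, the median change was −0.35 on the log2 scale, and the summed level in knockout was 79.2% of that in wild type without overlap. Of the 8 genes other than *Sf3b2*, 6 were lower. The fall of the sum rests on *Sf3b2*. Without it, a sum added after the values were seen, the other 8 genes held 424 ± 31.7 CPM in wild type and 419 ± 45.6 CPM in knockout (98.7%), with overlap.

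The Prpf factors act mainly in the tri-snRNP and in the activation of the spliceosome. None of the 13 tested genes passed the threshold in edgeR or DESeq2, and 2, *Prpf31* and *Prpf8*, had an unadjusted p under 0.05, both lower. Among the 5 whose human counterparts are retinitis pigmentosa genes, *Prpf31*, which holds the tri-snRNP together, had 32.2, 40.3, 24.5 and 24.5 CPM in wild type and 25.9, 16.5, 19.6 and 15.7 CPM in knockout. Of its knockout libraries 3 lay below every wild type and 1 within their range, with a log2 fold change of −0.65 (interval −1.15 to −0.15, adjusted p = 0.0794, or 0.0357 without knockout replicate 1). The annotated gene *Gm15927* lies on the opposite strand at its end.

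*Prpf8*, the protein at the heart of the catalytic centre, had 175, 215, 213 and 222 CPM in wild type and 140, 190, 198 and 153 CPM in knockout. Its ranges overlapped, with a log2 fold change of −0.28 (interval −0.50 to −0.05, adjusted p = 0.116, or 0.0174 without wild type replicate 1). The other three spanned 0. The log2 fold changes were −0.27 for *Prpf3* (interval −0.73 to 0.19), −0.10 for *Prpf6* (−0.39 to 0.18) and −0.06 for *Prpf4* (−0.56 to 0.45), the last of which was positive with library-size scaling.

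The SR proteins, RNA-binding activators of exon inclusion, had 10 tested genes, of which *Srsf2* alone passed the test. *Srsf2* (ENSMUSG00000034120, chr11:116849901-116853094), which encodes SC35, had 69.4, 60.4, 82.6 and 64.7 CPM in wild type and 124, 71.7, 102 and 103 CPM in knockout. Knockout replicate 2 lay within the wild type range and the other three above it. The log2 fold change was 0.53 (SE 0.151, adjusted p = 0.0143), and the call was lost without wild type replicate 2 or 4 or knockout replicate 1 (adjusted p = 0.0561 to 0.0911). *Mettl23* overlaps its end on the opposite strand, and whether reads were counted by strand is not given in the sources used here, so that reads of the 2 genes may not be told apart. For *Srsf3* the log2 fold change was 0.00 (interval −0.24 to 0.24) and for *Srsf11* 0.01 (−0.19 to 0.21). Among the 10 genes 5 were lower and 5 higher, with 1 lower under library-size scaling.

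The Clk kinases phosphorylate SR proteins. *Clk1* had 97.5, 110, 69.1 and 82.9 CPM in wild type and 107, 130, 126 and 105 CPM in knockout. The ranges overlapped, and its log2 fold change of 0.38 (interval 0.10 to 0.65) had an adjusted p of 0.0688. It passed the threshold without wild type replicate 1 (adjusted p = 0.0343) or 2 (0.0270), with library-size scaling (0.0191) and with a minimum of 5 CPM (0.0480). None of the 4 kinases passed the test in edgeR or DESeq2, and *Clk1* alone had an unadjusted p under 0.05.

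The Srrm proteins are large nuclear proteins rich in serine and arginine. *Srrm1* (ENSMUSG00000028809, chr4:135320484-135353321), a splicing coactivator known as SRm160, had 607, 649, 570 and 572 CPM in wild type and 479, 485, 484 and 487 CPM in knockout. All knockouts lay below all wild types, and the log2 fold change was −0.31 (SE 0.0771, adjusted p = 0.0045). *Srrm3* (ENSMUSG00000039860, chr5:135806890-135874772) had 53.5, 31.3, 47.8 and 45.3 CPM in wild type and 23.4, 33.0, 27.6 and 15.7 CPM in knockout. One knockout lay above the lowest wild type, the log2 fold change was −0.84 (SE 0.223, adjusted p = 0.00837), and the call was lost without knockout replicate 4 (adjusted p = 0.0528).

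*Srrm3* is active in photoreceptors and neurons, and the summed photoreceptor markers fell in the same libraries by the amounts given above. The part of this fall in the value of *Srrm3* was not tested. *Srrm4*, its neuronal relative, had a log2 fold change of 0.25 with a wide interval of −0.44 to 0.93. *Srrm2*, a core spliceosome protein, had 891, 766, 750 and 778 CPM in wild type and 708, 714, 698 and 720 CPM in knockout. Its genotypes did not overlap, but the log2 fold change of −0.17 had an adjusted p of 0.153.

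Of the 20 hnRNP genes, which encode abundant nuclear RNA-binding proteins that often repress exons, 1 rose and none fell. *Hnrnpll* (ENSMUSG00000024095, chr17:80029487-80062334), a regulator of alternative splicing best known from lymphocytes, had 61.3, 50.7, 63.4 and 51.3 CPM in wild type and 86.6, 92.4, 97.6 and 98.9 CPM in knockout. All knockouts lay above all wild types, the mean went from 56.7 ± 6.59 to 93.9 ± 5.59 CPM, and the log2 fold change was 0.73 (SE 0.142, adjusted p = 2.6e-04). Its paralogue *Hnrnpl* had 103, 128, 148 and 121 CPM in wild type and 107, 76.7, 101 and 111 CPM in knockout. These ranges overlapped, with a log2 fold change of −0.33 (interval −0.60 to −0.06, adjusted p = 0.107), past the threshold only in the fit without wild type replicate 1 among those that left out 1 library.

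Most other hnRNP genes had negative log2 fold changes that did not pass the test. In all 14 of 20 were lower, or 13 with library-size scaling, the median log2 fold change was −0.20, and the summed level in knockout was 92.4% of wild type. These sums did not overlap with TMM scaling and overlapped with library-size scaling. *Hnrnpa2b1* had a log2 fold change of 0.27 (interval 0.02 to 0.51, adjusted p = 0.158) and passed the threshold upwards with library-size scaling. *Hnrnpdl*, *Hnrnpa0*, *Hnrnpab* and *Hnrnpul2* were lower in every knockout than in every wild type, with adjusted p values of 0.101 to 0.341. With *Hnrnpll*, the genotypes did not overlap in 5 of the 20 hnRNP genes (25%), against 16.0% of all genes. *Hnrnpm* was at −0.25 on the log2 scale (adjusted p = 0.0783) and *Hnrnpu* at −0.17 (adjusted p = 0.217). *Hnrnph2* had the largest estimate, 1.23, from 0.677 to 6.13 CPM in wild type and 5.34 to 12.2 CPM in knockout, and at such low counts its interval ran from 0.19 to 2.26 (adjusted p = 0.122).

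Mbnl proteins bind YGCY motifs and drive adult splice patterns, and loss of their function underlies myotonic dystrophy. Both tested genes fell. *Mbnl2* (ENSMUSG00000022139, chr14:120275669-120431697) had 501, 429, 437 and 429 CPM in wild type and 336, 296, 340 and 342 CPM in knockout, and *Mbnl1* (ENSMUSG00000027763, chr3:60472830-60629750) had 135, 172, 141 and 143 CPM against 86.2, 105, 119 and 123 CPM. In both genes every knockout lay below every wild type. The log2 fold changes were −0.45 for *Mbnl2* (SE 0.0860, adjusted p = 1.99e-04) and −0.45 for *Mbnl1* (SE 0.124, adjusted p = 0.0117). For *Mbnl1* the call was lost with library-size scaling (adjusted p = 0.0554) and without wild type replicate 2 (0.0846) or knockout replicate 1 (0.0640).

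Celf proteins bind GU-rich elements. *Celf1* (ENSMUSG00000005506, chr2:90940382-91019497), also known as CUGBP1, rose from 109, 151, 122 and 127 CPM in wild type to 172, 151, 161 and 184 CPM in knockout. The lowest knockout and the highest wild type were nearly equal and the others were apart, with a log2 fold change of 0.39 (SE 0.115, adjusted p = 0.0188). That call was lost without wild type replicate 3 (adjusted p = 0.0563) or knockout replicate 4 (0.0850). *Celf2* had 312, 298, 319 and 324 CPM in wild type and 289, 262, 292 and 251 CPM in knockout, which did not overlap, with a log2 fold change of −0.20 (adjusted p = 0.167). *Celf3* was at most 9.29 CPM in any library, and its log2 fold change of −0.88 had an interval of −2.21 to 0.45. None of the 6 Celf genes fell past the threshold.

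The number of *Celf1* counts per count of *Mbnl1* and *Mbnl2* together, again a ratio chosen after the values were seen, was 0.171, 0.252, 0.211 and 0.223 in wild type and 0.408, 0.377, 0.350 and 0.396 in knockout. All knockouts lay above all wild types, with means of 0.214 ± 0.0334 in wild type and 0.383 ± 0.0252 in knockout. The genes of this ratio had opposite calls, so its separation adds no evidence beyond those calls. Within the Mbnl pair the proportion stayed level, at 0.331 ± 0.0535 *Mbnl1* counts per *Mbnl2* count in wild type and 0.330 ± 0.0490 in knockout.

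**Figure D3:**
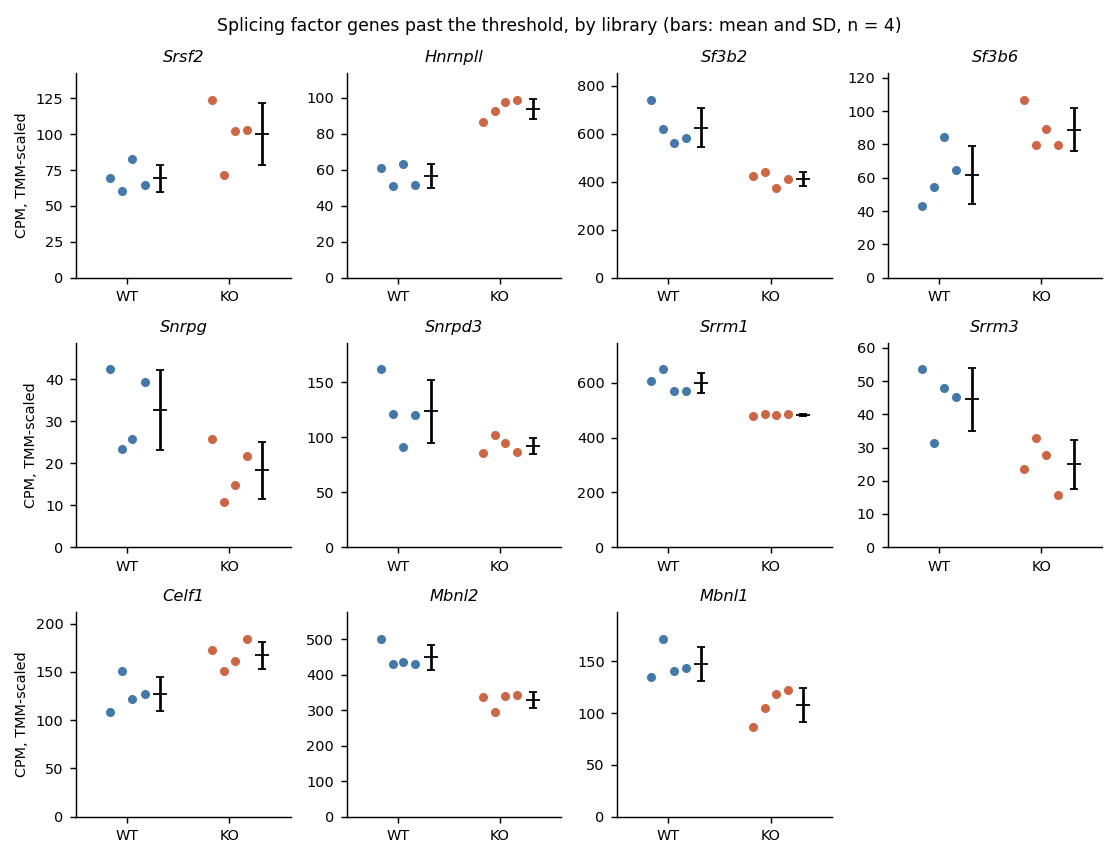
CPM of each of the 11 splicing factor genes past the threshold in each library, wild type and knockout, with the mean and SD (n = 4) beside the points. *Hnrnpll*, *Sf3b2*, *Srrm1*, *Mbnl1* and *Mbnl2* separate the genotypes completely, and the other 6 overlap.

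The families differed in how their summed level moved. The sum in knockout was 73.2% of wild type for Mbnl, 79.2% for SF3, 84.9% for Srrm and 85.7% for U2af, each without overlap between genotypes under both TMM and library-size scaling. It was 93.3% for the Sm and snRNP proteins, 94.1% for the Prpf factors, 98.6% for Celf, 105% for Luc7-like, 106% for SR proteins and 114% for Clk kinases, with overlap in each. With library-size scaling the SR and Clk sums no longer overlapped, knockout being higher. Without its gene with the most counts, the sum was 79.7% for Srrm (without *Srrm2*) and 73.2% for Mbnl (*Mbnl1* alone), still without overlap, whereas SF3 without *Sf3b2* and U2af without *U2af2* overlapped. The Srrm remainder was mostly *Srrm1* (mean 600 of 656 CPM in wild type and 484 of 523 CPM in knockout). *Srrm1* and *Mbnl1* were themselves past the threshold, so the Srrm and Mbnl remainders add no evidence beyond those calls.

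**Figure D4:**
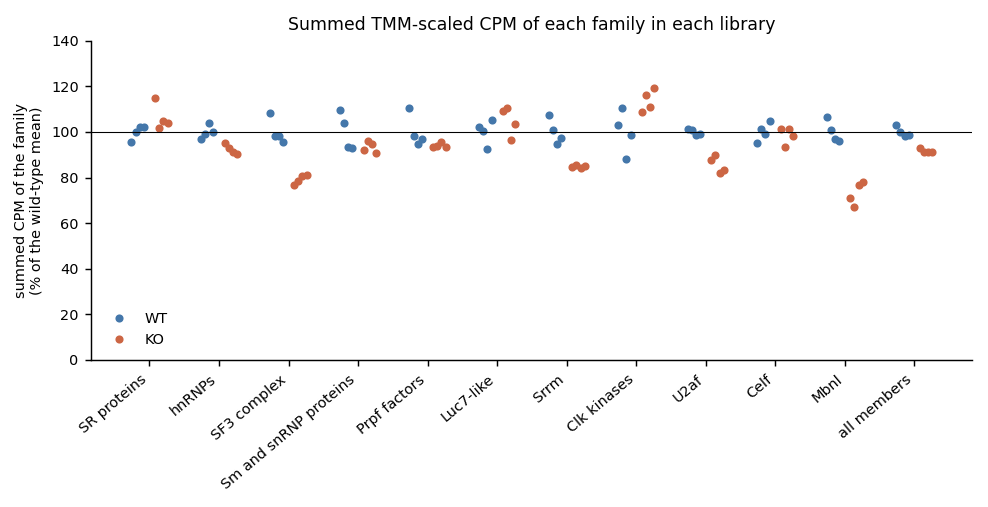
Summed CPM of each of the 11 families in each library, and of all 85 genes together, as a percentage of the wild type mean, with 1 point per library. The 4 knockout libraries lie below the 4 wild types for hnRNP, SF3, Srrm, U2af and Mbnl genes and for all 85 genes together. With library-size scaling this no longer holds for the hnRNPs and holds only narrowly for all 85 genes together. The SR and Clk sums then lie higher in knockout.

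Other genes of the splicing pathway outside these families were described from 8 fixed lists, of which 147 genes were tested. Of these 21 (14.3%) passed the test, 4 upwards and 17 downwards, against the background of 12.3% of all genes. In all 92 of 147 were lower, with a median log2 fold change of −0.16. Among the 31 snRNP and U2 proteins outside the families 2 rose and 4 fell, and 26 were lower. *Snrnp70*, the U1 protein that binds the U1 RNA loop, was up-regulated (log2 fold change 0.55, adjusted p = 7.14e-05) and *Snrnp27*, of the tri-snRNP, down-regulated (−0.66). Of the 12 exon junction complex and SR-related genes 3 fell, among them *Rbm8a*, which encodes the core subunit Y14 (−0.53). Of 20 hnRNP-like and FET genes 4 fell and none rose. They included *Pcbp4*, a poly-C-binding protein (−0.89, adjusted p = 1.64e-10), and the cold-shock domain protein gene *Ybx1* (−0.59, adjusted p = 2.23e-08). Of 32 other sequence-specific regulators 1 rose, *Qk* (0.53), known from RNA processing in glia, and 2 fell, *Khdrbs3* (−1.38, adjusted p = 1.85e-07), a STAR family protein, and *Msi1* (−0.46), known from photoreceptor microexons. Of the 9 SMN complex genes, which load Sm rings onto snRNAs, *Smn1* alone changed (−0.83).

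In 6 of the 85 genes, *Hnrnph1*, *Hnrnpa3*, *Snrpc*, *Snrpa*, *Snrpe* and *U2af1*, at least 90 of the last 300 transcript bases have a near-identical copy in another annotated gene, and their counts are uncertain. None of the 11 genes past the threshold is among these 6. At the gene end, 9 of the 85 genes are overlapped by another annotated gene on the opposite strand, and 1 on the same strand. The 9 include *Srsf2*, which is past the threshold, and *Prpf31*, *Hnrnpab*, *Srrm2* and *Srrm4*. As the strand setting is not given, their counts may hold reads of the other gene.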

How the data were processed

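QuantSeq 3′ FWD libraries from 30 ng of RNA were sequenced from 1 end to 100 bp. The authors used BBDuk for trimming, STAR for alignment to mm10 and htseq-count for unique reads, and deposited raw counts per Ensembl gene. The strand setting is not given in the sources used here. Rows that name no gene were left out (17.0% to 20.6% of reads on no feature, 32.8% to 34.5% not unique, 0.244% to 0.296% ambiguous). Symbols came from GENCODE M21 (30934 of 31053 identifiers named).

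The comparison was fitted with edgeR 4.0.16 (R 4.3.3): at least 1 CPM in 4 of 8 libraries, TMM scaling, the quasi-likelihood F test, two-sided, and Benjamini-Hochberg adjustment over all 12889 genes. CPM values are TMM-scaled. Alternatives were DESeq2 1.42.0, library-size scaling, RLE factors, TMM factors from genes outside the lens, erythrocyte and photoreceptor lists, other filters, a replicate block and each library left out. Exact two-sided permutation tests can reach 0.0286 at least and were not used for calls.

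The genes, families and lists were chosen with earlier results of these data known. Named genes were all past the threshold, the member of each family with the largest change and the one with the most counts, *Prpf3*, *Prpf4*, *Prpf6*, *Prpf8* and *Prpf31*, members below the filter, and called genes of the other lists; further members were named after their values were seen. The values of 1 gene named by this rule are not reported. Gene counts per library were 2389835 to 3093428, and floors cover counting error only.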

Additional observations from a re-analysis of the deposited data

Results flagged for a closer look

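The distance of the outermost library from the others was examined in each genotype for the 27 named splicing factor genes and the 11 family sums, 76 groups of 4 libraries in all, and 3 groups held a library set apart from the other three, where chance gives about 1 in 20. *Mbnl2* had 501 CPM in wild type replicate 1 against 429 to 437 CPM in the other wild types, and 296 CPM in knockout replicate 2 against 336 to 342 CPM in the other knockouts. Both lie on the outer side of their genotype, and the genotypes remained apart without them. *U2af1* had 17.2 CPM in knockout replicate 3 against 40.5 to 45.1 CPM in the other knockouts.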

How the results depend on the processing

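For the 27 named splicing factor genes, 404 comparisons with an alternative setting gave the same direction and side of the threshold in 362, lost the call in 27 (7 genes), gained it in 7 (4 genes) and changed sign in 8 (2 genes). DESeq2 called the same 11 genes, and *Hnrnpll*, *Sf3b2*, *Srrm1* and *Mbnl2* were called with any library left out. The numbers of genes called were 7 higher and 4 lower with library-size scaling, and from 2 to 4 higher and 5 to 7 lower with 1 library left out, against 4 and 7, the count of 2 coming without wild type replicate 4 or knockout replicate 1. A minimum of 5 CPM gave 5 higher (*Clk1* added) and 7 lower. For the other splicing genes, 4 higher became 8 with library-size scaling, 2 without a filter, 2 with the replicate block and 1 to 3 with 1 library left out (1 or 2 in each fit except those without wild type replicate 1 or knockout replicate 1), and 17 lower became 13 to 19. Signs changed close to 0: *Srsf11* was −0.0237 to 0.0883 with 1 library left out, and *Prpf4* was 0.0304 with library-size scaling, 0.0023 with the replicate block and −0.25 to 0.20 with 1 library left out. The causes were not tested. Same-numbered libraries of the genotypes did not deviate together (correlations −0.0557 to 0.0052), no library correlated best with its own number, and with the replicate block 10 of the 11 calls held, *Snrpd3* being lost (adjusted p = 0.0577). Depth limits the genes near 1 CPM, such as *Celf5* and *Celf6*.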
